A study of Mus musculus with 9 samples.

Results

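The nuclear genes for the subunits of the mitochondrial respiratory chain and the ATP synthase were followed in neutrophils sorted from the bone marrow, the blood and the lung of wild-type C57BL/6 mice. The members were taken by gene symbol from the deposited count table: the Nduf families a, b, c, s and v, the 4 Sdh genes, the Uqcr genes, Cox4 to Cox8 and Atp5, with Cyc1 and Cycs added. This gave 94 of the 24532 genes in the table. By the complex in which their products work, 44 belonged to complex I, 4 to complex II, 9 to complex III, 20 to complex IV and 16 to complex V, and 1, Cycs, encodes the mobile carrier cytochrome c. Symbols and complexes did not always match: Ndufa4 and Ndufa4l2 were counted with complex IV, and Atp5sl, an assembly factor of complex I, was counted with complex I. The rule for the members uses symbols and no measured value. Each tissue had 3 libraries of polyadenylated RNA, which the design text calls biological replicates, while the labels name no animal, so the p-values measure the spread between these samples. The sources used here do not give the age or sex of the mice, the markers of the sort or how tissues were dissociated. No group carried a transgene or a treatment.

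The respiratory chain passes electrons from NADH (complex I) or succinate (complex II) through ubiquinone to complex III, from there by cytochrome c to complex IV and so to oxygen. Complexes I, III and IV pump protons across the inner mitochondrial membrane, and complex V, the ATP synthase, uses the proton gradient to make ATP. Most subunits are encoded in the nucleus and imported, while the core membrane subunits of complexes I, III, IV and V are encoded by mitochondrial DNA. Mature neutrophils hold few mitochondria and draw most of their ATP from glycolysis. Their precursors in the marrow hold more. Cytochrome c also has a role in apoptosis, being released from mitochondria to activate caspases.

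Deposited read counts summed to between 42045548 and 56796219 per library. Levels are given as CPM (counts scaled to library totals that were adjusted by TMM factors), and a count of 3 reads corresponded to 0.0521 to 0.0767 CPM, a floor that covers counting error only. The 8 neutrophil markers, among them S100a8, Ly6g and Csf3r, were all present and summed to 81401 to 119443 CPM in marrow, 29773 to 43113 CPM in blood and 20813 to 38422 CPM in lung. Transcripts of other cells were present too, unevenly between replicates. Lung epithelial markers summed to 903, 285 and 76.7 CPM in lung replicates 1, 2 and 3 (14.9 to 90.8 CPM in the other tissues), and fibroblast and smooth muscle markers to 1592, 1353 and 176 CPM (56.0 to 287 CPM elsewhere). Macrophage markers summed to 1047, 1231 and 294 CPM in lung, 864 to 1160 CPM in marrow and 208 to 243 CPM in blood. Most of the marrow sums was 1 gene, Chil3, at 934, 800 and 1082 CPM in marrow and 787, 926 and 71.3 CPM in lung. C1qa, C1qb and C1qc stood at 0.334 to 2.84 CPM in marrow and 11.3 to 28 CPM in lung. Of the 9 markers, 8 had a positive and 1 a negative log2 fold change in lung against marrow. Early granulocyte precursor markers (Mpo, Elane and others) summed to 267, 121 and 35.5 CPM in marrow replicates 1 to 3 and to 6.82 to 9.16 CPM in blood, and erythroid markers to 8556, 9372 and 1719 CPM in marrow, 8812, 6115 and 822 CPM in blood and 32.9 to 429 CPM in lung. In such bulk samples, fewer cells of a type and less RNA per cell cannot be told apart.

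Compared per transcript length, as the deposited FPKM (fragments per kilobase of transcript and per library depth), the most abundant members over the 9 libraries were small subunits. In complex IV, Cox8a averaged 216 FPKM and Cox4i1 146 FPKM. In complex V, Atp5l (subunit g) averaged 157 FPKM and Atp5e (the epsilon subunit, grouped with the catalytic head and its central stalk) 144 FPKM. Ndufa3 and Ndufa7 led complex I at 101 and 76.8 FPKM, Uqcrh and Uqcr10 led complex III at 98.5 and 52.3 FPKM, and Sdhd and Sdhb led complex II at 48.0 and 36.1 FPKM. Cycs averaged only 5.30 FPKM, of a transcript model much longer than those of the small subunits. The filter on low counts removed 6 members, all of them isoforms or paralogs restricted to particular tissues (Cox4i2, Cox7a1, Cox7b2, Cox8b, Cox8c and Ndufa4l2), and 88 of 94 were tested among 13510 genes.

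Summed over all 94 members, the level was 2838, 3021 and 3649 CPM in bone marrow replicates 1 to 3, 2310, 2139 and 2449 CPM in blood and 2879, 2417 and 2846 CPM in lung. All 3 marrow sums lay above all 3 blood sums, whereas the lung sums overlapped both. As a plain share of all reads, without TMM scaling, the members took 0.273% ± 0.00881 in marrow, 0.259% ± 0.00920 in blood and 0.280% ± 0.0581 in lung (mean ± SD, n = 3), so on that scale marrow and blood overlapped. Complex I summed to 858 ± 123 CPM in marrow, 588 ± 42.9 CPM in blood and 663 ± 69.0 CPM in lung. Complex III followed the same order, with 323 ± 42.8, 220 ± 12.1 and 249 ± 26.7 CPM, and so did complex V, with 1031 ± 118, 739 ± 41.8 and 902 ± 72.2 CPM. Lung stood close to marrow in complex IV, with 692 ± 116 CPM in marrow, 537 ± 41.3 CPM in blood and 674 ± 84.9 CPM in lung. Complex II stood at 244 ± 28.1 CPM in marrow, 206 ± 22.9 CPM in blood and 205 ± 21.7 CPM in lung, with blood and marrow overlapping.

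**Figure D1:**
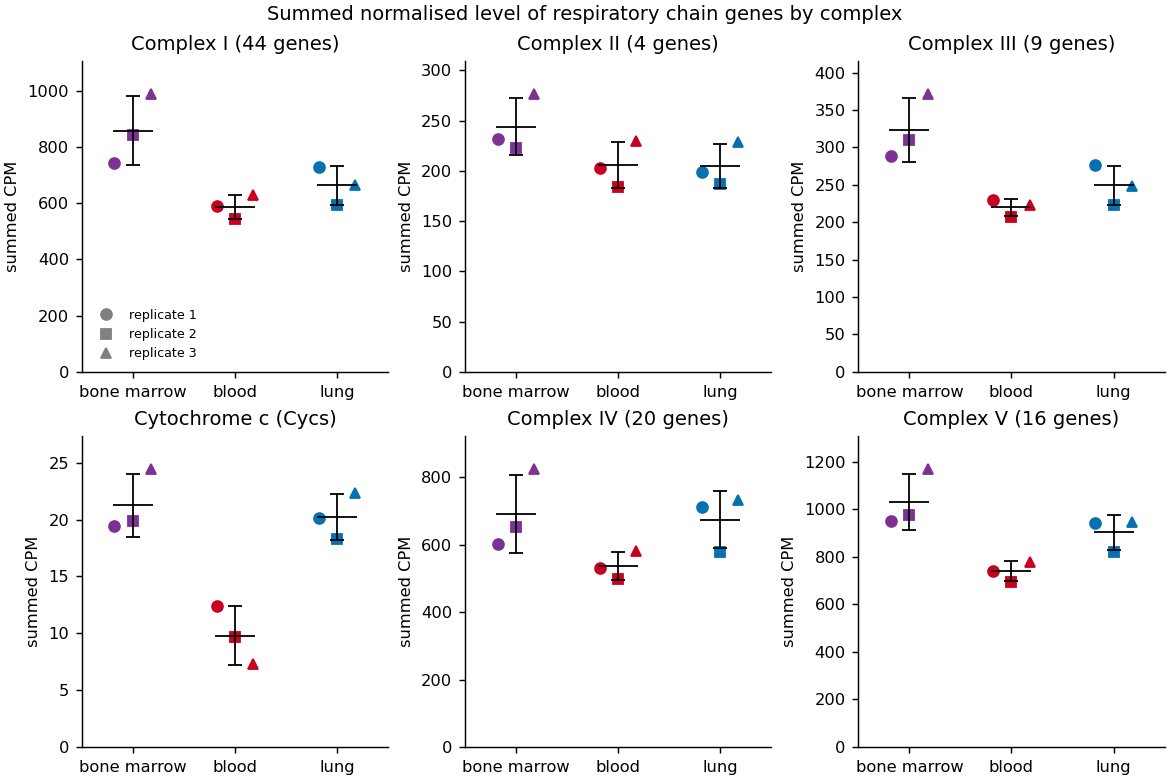
Summed CPM of the members of each complex (vertical axis, from 0) in the 3 libraries of each tissue (horizontal axis). Points are libraries, and bars are the mean and SD of n = 3. Complex I stands at 743 to 987 CPM in marrow and 544 to 629 CPM in blood, and Cycs at 7.27 to 12.4 CPM in blood against 18.3 to 24.4 CPM in marrow and lung.

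On the TMM scale many respiratory chain genes stood lower in the blood libraries than in the marrow libraries. Tested with edgeR (quasi-likelihood, Benjamini-Hochberg adjustment over all genes tested), 28 of 88 tested members were lower in blood at an adjusted p under 0.05, against 13.1% of all genes tested, and 1 (Atp5sl) was higher, against 8.34% (29 in all, against 21.4%). The median log2 fold change of the members was -0.46, against -0.05 over all genes tested, and 78 of 88 members were below 0. In 53 members every blood library lay below every marrow library, as in 25.6% of all genes tested, and in 1 every blood library lay above, as in 19.8%. Among members of at least 10 CPM on average the median was -0.49, against -0.11 over all genes tested at that level. The calls spread over all complexes: 11 of 44 in complex I, 1 of 4 in complex II, 5 of 9 in complex III, Cycs, 4 of 14 tested in complex IV and 6 of 16 in complex V were lower in blood.

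How many of these differences were called depended on the scaling and on single libraries. With the library totals alone as the scale, the median of all genes tested moved from -0.05 to 0.33 and that of the members from -0.46 to -0.07, the distance between them staying at -0.41, and the calls became 2 higher and 8 lower. Of all 13510 genes tested, 2346 were then higher and 1050 lower. Leaving out marrow replicates 2 or 3 left 14 or 10 calls in place of 29, and leaving out blood replicates 1, 2 or 3 left 10, 6 or 10. Lower in blood in these fits were 13, 9, 9, 5 and 9 of the 89 or 90 members tested. Over all genes 1085 of 14519, 1045 of 14608, 840 of 14545, 645 of 14522 and 848 of 14610 were lower. In each fit 1 member was higher, beside 510 to 715 genes. Markers of other cells moved with the comparison: 6 of 7 early precursor markers were lower in blood and 1 was higher. Lower too were 5 of 9 cycling markers and 3 of 8 tested erythroid markers. Cycling markers summed to 76.6 to 195 CPM in marrow and 20.3 to 226 CPM in blood. The 226 CPM belonged to blood replicate 1, where Pcna alone stood at 216 CPM. Of the 9 cycling markers, 8 had a negative and 1 a positive log2 fold change in blood against marrow. Marrow replicate 3 was the lowest marrow library in the early precursor, cycling and erythroid sums. The part of these cells in the members' differences was not tested.

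Lung neutrophils against blood neutrophils showed mostly small, positive differences. Of the 88 tested members 10 were higher in lung, against 13.2% of all genes tested, and 2 (Ndufs1 and Uqcrc1) were lower, against 15.7%, by edgeR (12 in all, against 28.9%). In this fit the share called higher was near that background. The median log2 fold change was 0.31, against 0.05 over all genes tested, and 79 of 88 members were above 0. Among members of at least 10 CPM the median was 0.22, against -0.20 over all genes tested at that level. The genes higher in lung were Ndufaf7, Ndufa2 and Ndufb2 of complex I, Uqcrh of complex III, Cycs, Cox5a, Cox6c and Cox7c of complex IV, and Atp5d and Atp5g3 of complex V.

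The split of these calls moved with the scaling, to 13 higher and 0 lower with DESeq2's size factors in edgeR, 24 and 0 with upper-quartile scaling and 3 and 2 with library totals. Over all 13510 genes tested these scalings gave 1885 higher and 1430 lower, 2194 and 1731, and 1537 and 2840. In place of 12 calls there were 6 and 5 without marrow replicates 1 and 2, 5, 4 and 4 without blood replicates 1, 2 and 3, 3 without lung replicate 1 and 22 without lung replicate 3. Without marrow replicates 1 and 2, 1729 and 1647 genes were higher and 1885 and 1740 lower. Without blood replicates 1, 2 and 3, 1213, 1040 and 956 genes were higher and 1314, 1298 and 966 lower. Without lung replicate 1, 1224 of 13747 genes were higher and 1551 lower. Without lung replicate 3 these were 2899 and 2953 of 14607. Transcripts of other lung cells moved with the comparison: 6 of 8 epithelial, 9 of 10 fibroblast and smooth muscle, 4 of 6 tested endothelial and 6 of 9 macrophage markers were higher in lung. With lung represented by replicate 3 alone, the library with the least of these, 6 members were higher and 1 lower, and the members' median was 0.36 against -0.10 over all genes tested. In that fit the lone lung library is assumed to vary like the other groups.

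Between lung and marrow 16 of 88 tested members were called, against 38.2% of all genes tested. Of these 15 were lower in lung, against 22.6% of all genes tested, and 1 (Atp5g2) was higher, against 15.6%, by edgeR. The median was -0.14, against 0.06 over all genes tested, but among members of at least 10 CPM it was -0.23, against -0.32 over all genes tested at that level. The balance of the calls shifted with the scaling: DESeq2's size factors in edgeR gave 4 higher and 10 lower, upper-quartile scaling 10 higher and 9 lower, and library totals 4 higher and 7 lower. Over all 13510 genes tested the counts were 2431 higher and 2248 lower, 3105 and 2130, and 2501 and 2206. These scalings moved the median of all genes tested to 0.20, 0.38 and 0.33, and the members stayed 0.20 below it. Without marrow replicate 3 there were 10 calls in place of 16, with 0 of 90 members higher and 10 lower, beside 1550 and 2383 of 14608 genes. With lung replicate 3 as the only lung library the members' median was -0.03, against -0.08 over all genes tested. Of the 7 early precursor markers 5 were lower and 2 higher in lung than in marrow, and 4 of 8 tested erythroid markers were lower. Higher in lung than in marrow were 8 of 9 macrophage, 6 of 10 fibroblast and smooth muscle, 5 of 6 tested endothelial and 3 of 8 epithelial markers.

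**Figure D2:**
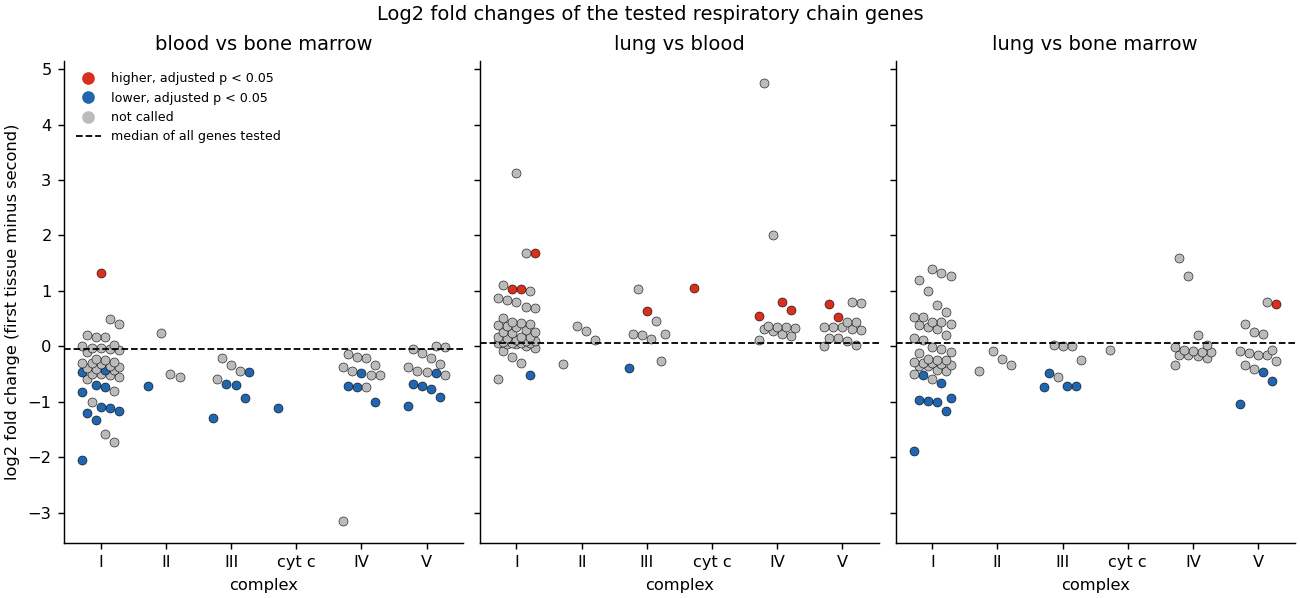
Log2 fold change of each of the 88 tested members (vertical axis) by complex (horizontal axis) in the 3 comparisons. Blue points are lower and red points higher at an edgeR adjusted p under 0.05, grey points are not called, and the dashed line is the median of all genes tested. Most points lie below the line in blood against marrow (28 blue, 1 red) and above it in lung against blood.

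The 3 comparisons share libraries, so their calls were combined only as patterns. Highest in marrow against both other tissues were 14 members (15.9%, against 9.3% of all genes tested), among them Ndufs1, Ndufs4, Ndufv3, Ndufa8, Ndufb7, Ndufb8, Ndufb11, Cyc1, Uqcr10, Uqcrc2, Atp5c1, Atp5f1 and Atp5k. Lowest in blood against both were 6 members (6.82%, against 2.96%): Ndufaf7, Cycs, Cox5a, Cox6c, Cox7c and Atp5g3. Lowest in lung against both were Ndufs1 and Uqcrc1 (2.27%, against 11.2%). No member was highest in blood or in lung. In 53 members (60.2%, against 49.8%) no comparison was called. Of the 29 members called between blood and marrow, 5 (Ndufv3, Ndufs4, Ndufa8, Ndufb11 and Atp5sl) kept the call in all 20 alternative analyses. Of the 12 called between lung and blood, 3 (Ndufaf7, Ndufa2 and Cycs) kept it in all 22, and of the 16 called between lung and marrow, 2 (Ndufv3 and Ndufs4) kept it in all 21. Each of the other calls was lost in at least 1 alternative.

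Complex I has core subunits that carry the electrons and many supernumerary subunits around them. Of the 7 nuclear core subunits 2 were lower in blood than in marrow, with a median of -0.10 over the 7, and of the 29 supernumerary subunits 8 were lower, with a median of -0.50, against 13.1% of all genes tested and a median of -0.05. The difference between these groups of subunits was not tested. The most marked was Ndufv3 (Entrez gene 78330, chromosome 17, 31520115 to 31531325, mm10), which encodes a small subunit of the NADH-oxidising module. It stood at 32.7, 43.3 and 44.9 CPM in marrow, 9.64, 9.80 and 9.72 CPM in blood and 12.9, 11.4 and 8.22 CPM in lung. Every marrow library lay above every blood and lung library, and blood and lung overlapped. The log2 fold change was -2.05 ± 0.20 (SE) in blood against marrow (edgeR adjusted p = 0.000186) and -1.89 ± 0.19 in lung against marrow (edgeR adjusted p = 0.000137), while lung against blood gave 0.16 ± 0.19. Both listed Ndufv3 transcripts showed this: the one of 487 bases stood at 16.2, 21.9 and 25.7 CPM in marrow and 4.50 to 4.62 CPM in blood, the one of 1579 bases at 16.5, 21.4 and 19.2 CPM in marrow and 5.01 to 5.30 CPM in blood.

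Ndufs4, a supernumerary subunit that helps to attach the NADH-oxidising module, stood at 21.8, 22.4 and 24.9 CPM in marrow, 9.33, 8.62 and 9.63 CPM in blood and 12.9, 10.7 and 11.5 CPM in lung (Entrez gene 17993, chromosome 13, 114287795 to 114388094). The marrow libraries stood apart from both other tissues, and all lung libraries lay above all blood libraries. Ndufs4 was lower by -1.33 ± 0.14 in blood against marrow (edgeR adjusted p = 0.000296) and by -0.98 ± 0.14 in lung against marrow (edgeR adjusted p = 0.000702), and lung against blood, at 0.35 ± 0.14, missed the threshold (edgeR adjusted p = 0.0875). Ndufa8, a subunit on the intermembrane side, stood at 37.5, 40.3 and 54.8 CPM in marrow, 19.5, 16.7 and 21.1 CPM in blood and 19.9, 17.2 and 22 CPM in lung. Its blood and lung libraries overlapped, and its log2 fold changes against marrow were -1.21 ± 0.18 and -1.17 ± 0.18 (edgeR adjusted p = 0.00194 and 0.00113). Ndufb7 and Ndufb11, subunits of the membrane arm, had the same course, with -1.11 ± 0.21 and -1.10 ± 0.17 in blood against marrow and -1.01 ± 0.21 and -0.94 ± 0.17 in lung against marrow. With lung replicate 3 as the only lung library, Ndufa8, Ndufb7 and Ndufb11 were no longer called against marrow (edgeR adjusted p = 0.0835, 0.215 and 0.0682), and without blood replicate 1 or 2 Ndufb7 was no longer called between blood and marrow (edgeR adjusted p = 0.0686 and 0.0881). Ndufa1, Ndufb3 and Ndufb8 were the other supernumerary subunits called lower in blood, at -0.82, -0.74 and -0.70.

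The core subunits of complex I differed from each other. Ndufs1, the largest core subunit, which holds several iron-sulfur clusters, stood at 38.5, 44.1 and 49.3 CPM in marrow, 29.4, 30.4 and 36.0 CPM in blood and 20.7, 24.1 and 22.7 CPM in lung. The 3 tissues did not overlap, and the steps were -0.46 ± 0.14 from marrow to blood and -0.51 ± 0.14 from blood to lung (edgeR adjusted p = 0.0457 and 0.0249), with -0.97 ± 0.14 in lung against marrow (edgeR adjusted p = 0.000839). The first of these calls was lost in 16 of the 20 alternatives and the second in 13 of 22, among them the fits without marrow replicate 2 (edgeR adjusted p = 0.134 and 0.0502) and without blood replicate 3 (edgeR adjusted p = 0.121 and 0.180). By contrast Ndufv1, the flavin-bearing subunit that oxidises NADH, stood at 18.7, 21.1 and 22.5 CPM in marrow, 21.9, 17.4 and 20.5 CPM in blood and 25.3, 22.6 and 23.7 CPM in lung, and none of its comparisons was called. Its log2 fold change in blood against marrow was -0.06 ± 0.13, and Ndufs3, Ndufs7, Ndufs8 and Ndufv2, also core subunits, gave -0.38 to 0.17 with no call.

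Of the supernumerary subunits Ndufa2, which belongs to the NADH-oxidising module, was higher in lung than in blood. It stood at 21.4, 21.8 and 27.8 CPM in marrow, 15.5, 13.9 and 17.6 CPM in blood and 40.7, 23.2 and 32.1 CPM in lung. Lung and marrow overlapped, both lay above blood, and lung against blood gave 1.03 ± 0.21 (edgeR adjusted p = 0.00769), with 1.05 on the RSEM counts (edgeR adjusted p = 0.0211). Ndufb2 was higher in lung by 1.04 ± 0.31 at a low level of 1.54 to 4.70 CPM, and its deposited counts were 1.04 times the RSEM counts, where most genes were near 2.01 times. Other members far from that ratio were Ndufs5 (0.189), Ndufb4 (4.47), Cycs (2.74), Ndufab1 (1.40), Atp5s (1.47), Cox7c (1.58) and Uqcrq (1.68), so their levels depend on how reads were assigned.

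Assembly factors of complex I, which build the complex without staying in it, included Atp5sl, the member called higher in blood than in marrow, and Ndufaf7, which was lowest in blood. Atp5sl (Entrez gene 66349, chromosome 7, 25619414 to 25625550), a factor for the membrane arm, stood at 7.84, 7.59 and 6.34 CPM in marrow, 15.7, 21.7 and 17.5 CPM in blood and 14.1, 15.1 and 7.15 CPM in lung. Blood lay above marrow in every library, by 1.33 ± 0.28 (edgeR adjusted p = 0.0101), while lung overlapped marrow because of lung replicate 3. Ndufaf7, a methyltransferase that acts during assembly, stood at 19.5, 20.4 and 26.3 CPM in marrow, 12.8, 8.80 and 8 CPM in blood and 25.5, 25 and 44.8 CPM in lung. It was lower in blood than in marrow by -1.16 ± 0.28 (edgeR adjusted p = 0.0173) and higher in lung than in blood by 1.69 ± 0.28 (edgeR adjusted p = 0.00297), with lung replicate 3 the highest library. The first call was lost without any 1 blood library and without marrow replicate 3 (edgeR adjusted p = 0.0508, 0.143, 0.134 and 0.0723). The other 6 factors, Ndufaf1 to Ndufaf6, stood at 0 to 7.80 CPM and were not called.

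**Figure D3:**
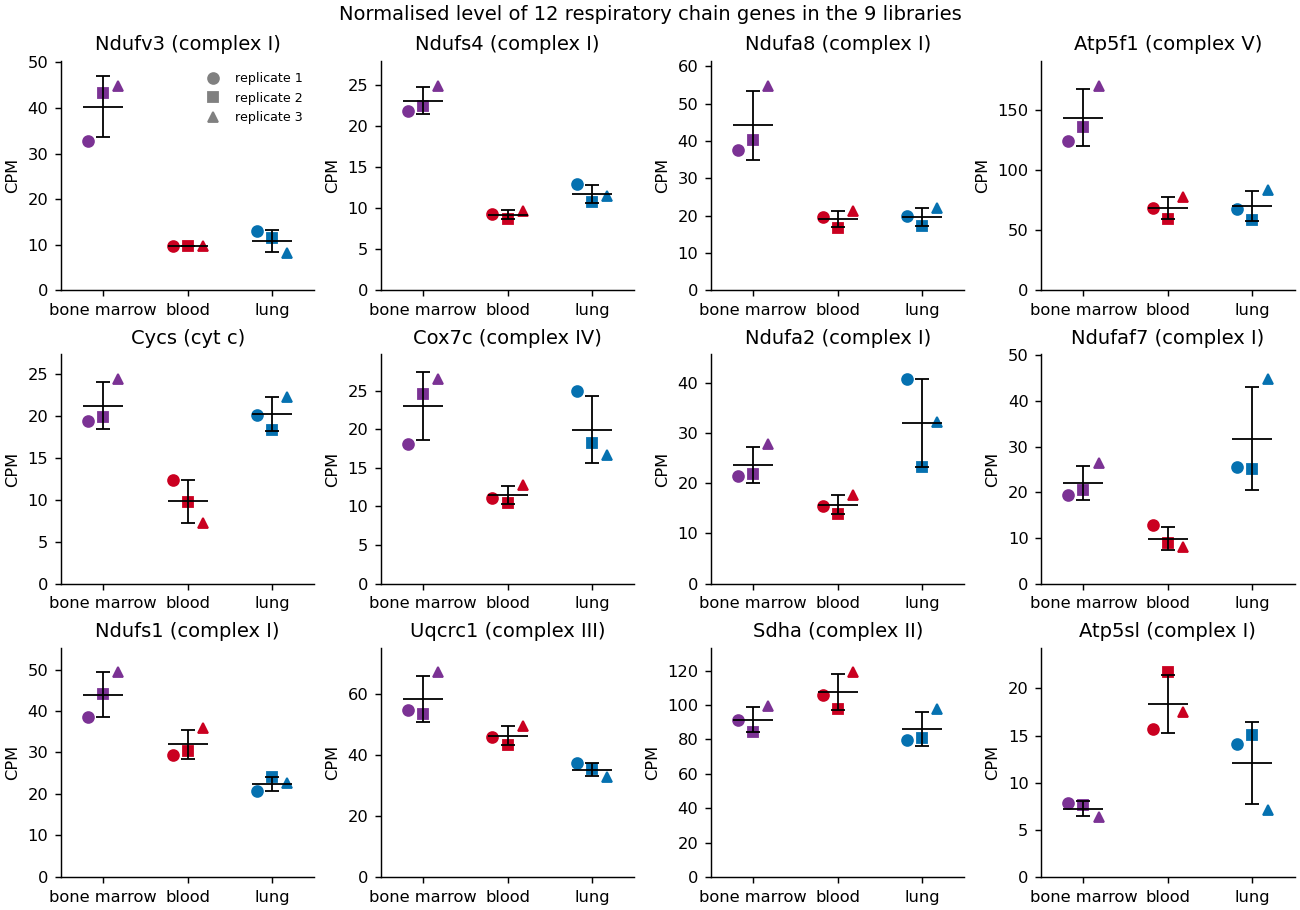
CPM (vertical axes, from 0, each with its own range) of 12 members in the 3 libraries of each tissue. Points are libraries, and bars are the mean and SD of n = 3. Ndufv3, Ndufs4, Ndufa8 and Atp5f1 are high in marrow only, Cycs, Cox7c, Ndufa2 and Ndufaf7 are low in blood, and Sdha overlaps between marrow and lung at 79.8 to 99.2 CPM.

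Complex II, succinate dehydrogenase, is encoded by 4 nuclear genes and also works in the citrate cycle. Sdha, the flavoprotein that oxidises succinate, stood at 91.2, 84.4 and 99.2 CPM in marrow, 106, 98.0 and 119 CPM in blood and 79.8, 80.6 and 97.7 CPM in lung. Blood overlapped marrow, and no comparison was called (0.23 ± 0.14 in blood against marrow, edgeR adjusted p = 0.288). In 6 of 20 alternatives Sdha was called higher in blood than in marrow, with 0.60 on library totals (edgeR adjusted p = 0.00372), 0.38 with upper-quartile scaling (edgeR adjusted p = 0.0216), 0.57 and 0.59 on the FPKM scales, 0.37 at 10 CPM or more and 0.38 with only the 6 libraries compared, and the adjusted p over all 20 ran from 0.00372 to 0.651. Sdhd, a membrane anchor (Entrez gene 66925, chromosome 9, 50596340 to 50603849), stood at 78.5, 73.0 and 92.0 CPM in marrow, 52.0, 41.8 and 54.7 CPM in blood and 64.4, 53.6 and 74.6 CPM in lung, with lung between the others and overlapping both. It was lower in blood than in marrow by -0.71 ± 0.17 (edgeR adjusted p = 0.0170), a call lost without marrow replicate 3 or without blood replicates 1, 2 or 3 (edgeR adjusted p = 0.0768, 0.174, 0.263 and 0.102). Sdhb, the iron-sulfur subunit, and Sdhc, the other anchor, gave -0.56 ± 0.19 and -0.50 ± 0.18 in blood against marrow without passing the threshold (edgeR adjusted p = 0.0632 and 0.0844).

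In complex III both electron-carrying nuclear subunits were lower in blood than in marrow. Cyc1, cytochrome c1, stood at 25.9, 25.4 and 28.1 CPM in marrow, 13.6, 15.1 and 12.5 CPM in blood and 18.7, 19.1 and 10.3 CPM in lung, where replicate 3 stood below the others. Its log2 fold changes against marrow were -0.94 ± 0.23 in blood and -0.72 ± 0.22 in lung (edgeR adjusted p = 0.0176 and 0.0322). Without marrow replicate 3 neither passed (edgeR adjusted p = 0.0578 and 0.0757), and without marrow replicates 1 or 2 the lung call of Cyc1 was also lost (edgeR adjusted p = 0.0568 and 0.0628). Uqcrfs1, the Rieske iron-sulfur protein, was lower in blood by -0.68 ± 0.20 (edgeR adjusted p = 0.0399), a call lost in 13 of 20 alternatives. Uqcrb, a ubiquinone-binding subunit, stood at 9.27, 10.3 and 11.9 CPM in marrow, 5.58, 4.80 and 2.51 CPM in blood and 12.1, 8.97 and 5.56 CPM in lung, and was lower in blood by -1.29 ± 0.36 (edgeR adjusted p = 0.0319), a call lost in 10 of the 19 alternatives that tested it. Uqcr10 and Uqcrc2 were lower in blood as well, by -0.70 and -0.47.

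The core proteins of complex III, which face the matrix, were lowest in lung. Uqcrc1 stood at 54.8, 53.5 and 67.2 CPM in marrow, 46.0, 43.4 and 49.7 CPM in blood and 37.3, 35.5 and 32.9 CPM in lung. The 3 tissues did not overlap. Lung was lower than blood by -0.39 ± 0.13 (edgeR adjusted p = 0.0471), a call lost in 20 of 22 alternatives, and lower than marrow by -0.73 ± 0.13 (edgeR adjusted p = 0.00234). Uqcrc2 stood at 41.6, 44.7 and 51.3 CPM in marrow, 32.4, 32.8 and 34.2 CPM in blood and 26.9, 28.7 and 27.7 CPM in lung, and lung was lower than marrow by -0.72 ± 0.12 (edgeR adjusted p = 0.00139). Its lung libraries all lay below its blood libraries, but lung against blood, at -0.26 ± 0.12, was not called (edgeR adjusted p = 0.132). Uqcrh, the hinge protein that docks cytochrome c, went the other way between blood and lung. It stood at 40.7, 39.9 and 42.8 CPM in blood and 79.8, 48.4 and 63.2 CPM in lung, with a log2 fold change of 0.63 ± 0.20 (edgeR adjusted p = 0.0400) that was not called in 14 of 22 alternatives.

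Cycs, which encodes the carrier cytochrome c (Entrez gene 13063, chromosome 6, 50562563 to 50566474), had its lowest values in blood. It stood at 19.4, 19.9 and 24.4 CPM in marrow, 12.4, 9.70 and 7.27 CPM in blood and 20.1, 18.3 and 22.3 CPM in lung. All blood libraries lay below all others, and marrow and lung overlapped. The log2 fold change was -1.12 ± 0.21 in blood against marrow (edgeR adjusted p = 0.00567), 1.05 ± 0.21 in lung against blood (edgeR adjusted p = 0.00618) and -0.07 ± 0.20 in lung against marrow. Without blood replicate 2 the first had an adjusted p of 0.0507 by edgeR, while the second was called in every alternative, with 0.95 on the RSEM counts (edgeR adjusted p = 0.0306).

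In complex IV, cytochrome c oxidase, all 11 subunits of the common form had a negative log2 fold change in blood against marrow (median -0.49) and a positive one in lung against blood (median 0.34). By edgeR 4 were called lower in blood than in marrow, against 13.1% of all genes tested, and 3 higher in lung than in blood, against 13.2%. Between lung and marrow 0 of the 11 were called, against 38.2% of all genes tested, and 0 had an unadjusted p under 0.05. Cox7c, a small membrane subunit, stood at 18.1, 24.6 and 26.5 CPM in marrow, 11.1, 10.5 and 12.8 CPM in blood and 24.9, 18.2 and 16.7 CPM in lung. Its blood values were the lowest, at -1.01 ± 0.20 against marrow (edgeR adjusted p = 0.00875), and lung was higher than blood by 0.80 ± 0.20 (edgeR adjusted p = 0.0181). Cox5a, a matrix-side subunit, stood at 30.4, 31.0 and 40.3 CPM in marrow, 22.1, 17.7 and 21.3 CPM in blood and 36.9, 29.2 and 29.9 CPM in lung, with -0.73 ± 0.16 and 0.65 ± 0.16 (edgeR adjusted p = 0.0134 and 0.0173). Without blood replicate 1 or 2 neither Cox7c call passed (edgeR adjusted p = 0.0506 and 0.0607 against marrow, 0.0661 and 0.0730 against lung), nor did those of Cox5a, which were also lost without blood replicate 3 (edgeR adjusted p = 0.0569 against marrow and 0.0526 against lung). Cox6c followed with -0.71 ± 0.17 and 0.55 ± 0.17, and Cox7a2 was lower in blood by -0.49 ± 0.15.

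The most abundant complex IV genes were not called in any comparison. Cox4i1, which lies at the surface of the complex and takes part in its regulation, stood at 111, 115 and 154 CPM in marrow, 92.9, 86.0 and 102 CPM in blood and 128, 102 and 124 CPM in lung. Its blood libraries lay below all marrow libraries, with -0.44 ± 0.17 (edgeR adjusted p = 0.0999). Cox8a overlapped in all comparisons, with -0.14 ± 0.20 in blood against marrow and 0.33 ± 0.20 in lung against blood, and Cox6a1 gave -0.19 ± 0.16 and 0.22 ± 0.16. Ndufa4, which despite its name is a subunit of complex IV, gave -0.51 ± 0.23 and 0.18 ± 0.23. Cox7a2l, grouped here as a factor of supercomplexes (assemblies of complexes III and IV), stood at 72.4 to 104 CPM in the 9 libraries. It gave -0.22 ± 0.15 and 0.12 ± 0.15.

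Isoforms of complex IV subunits that belong to other tissues were close to absent. The 8 such genes together summed to 0.739, 1.35 and 0.563 CPM in marrow, 0.807, 0.452 and 0 CPM in blood and 4.88, 2.37 and 0.372 CPM in lung. Cox4i2, known as the lung isoform, had no read in any marrow or blood library and stood at 0.236, 0 and 0.149 CPM in lung. Cox6a2 and Cox7a1, isoforms of heart and skeletal muscle, stood at 0.872, 0.359 and 0 CPM and at 0.363, 0.159 and 0 CPM in lung, and at 0 to 0.286 CPM elsewhere. Ndufa4l2, a paralog of Ndufa4, stood at 1.14, 0.498 and 0.0993 CPM in lung and reached 0.0654 CPM elsewhere. For Cox6a2, Cox6b2 and Ndufa4l2 lung replicate 1 was the highest library and lung replicate 2 the next, the order in which epithelial and fibroblast markers were highest, and lung replicate 3 held 0 to 0.124 CPM. For Cox7a1 lung replicate 1 was the highest too, but marrow replicate 3, at 0.23 CPM, came next. Ndufa5 showed the same order within lung, at 5.70, 3.15 and 0.397 CPM, as did the ring subunit gene Atp5g1, at 13.9, 10.4 and 4.99 CPM. The part of other lung cells in these values was not tested.

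Complex V has a catalytic head, a rotating ring of c subunits, and a peripheral stalk that holds the head in place. Of the 7 stalk and membrane genes 4 were lower in blood than in marrow, against 13.1% of all genes tested, with a median of -0.69. Atp5f1, which encodes subunit b of the stalk (Entrez gene 11950, chromosome 3, 105942678 to 105960248), stood at 124, 136 and 170 CPM in marrow, 68.1, 59.2 and 77.7 CPM in blood and 67.3, 58.7 and 83.3 CPM in lung. Marrow stood apart, and the log2 fold changes were -1.07 ± 0.19 and -1.04 ± 0.19 against it (edgeR adjusted p = 0.00451 and 0.00260). Without blood replicate 1 or 2 the former was not called (edgeR adjusted p = 0.0772 and 0.0960), nor was the latter for Atp5f1 with lung replicate 3 as the only lung library (edgeR adjusted p = 0.191). In the deposited table almost all Atp5f1 reads of a library went to 1 of its 2 transcripts, and which one differed between libraries of the same tissue, so only the gene sum is used. Atp5h (subunit d), Atp5k (subunit e) and Atp5o (the protein that joins stalk and head) were lower in blood by -0.69, -0.78 and -0.71.

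In the catalytic head and its central stalk 1 of 5 genes, Atp5c1, was lower in blood than in marrow, with a median of -0.32. The difference from the peripheral stalk and membrane genes was not tested. Atp5b, the catalytic beta subunit, stood at 236, 245 and 274 CPM in marrow, 187, 177 and 195 CPM in blood and 221, 216 and 275 CPM in lung, the highest CPM of all members. Blood lay below both other tissues in every library, but neither comparison was called (-0.44 ± 0.15 and 0.35 ± 0.15, edgeR adjusted p = 0.0718 and 0.116). Atp5a1, the alpha subunit, gave -0.32 ± 0.13 and 0.15 ± 0.13. Atp5c1, the central gamma subunit, was lower than in marrow in both blood and lung, by -0.48 ± 0.12 and -0.47 ± 0.12 (edgeR adjusted p = 0.0222 and 0.0140), calls lost in 10 of 20 and 15 of 21 alternatives. Atp5d, the delta subunit, was higher in lung than in blood by 0.53 ± 0.17 (edgeR adjusted p = 0.0453), a call lost in 16 of 22.

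Subunit c of the ring is made from 3 genes, Atp5g1, Atp5g2 and Atp5g3, whose mature proteins are the same. Atp5g3 stood at 22.5, 21.8 and 23.7 CPM in marrow, 14.8, 11.6 and 9.40 CPM in blood and 26.8, 20.3 and 13.9 CPM in lung. It was lower in blood than in marrow by -0.92 ± 0.25 (edgeR adjusted p = 0.0287), and lung against blood gave 0.77 ± 0.25 (edgeR adjusted p = 0.0455) although lung replicate 3 lay within the blood range. These calls were lost in 10 of 20 and 14 of 22 alternatives. Atp5g2 stood at 13, 13.4 and 12.1 CPM in marrow, 12.3, 15.3 and 10.6 CPM in blood and 28.3, 23.7 and 13.5 CPM in lung, and was higher in lung than in marrow by 0.77 ± 0.26 (edgeR adjusted p = 0.0437). With only lung replicate 3 kept this fell to 0.34 (edgeR adjusted p = 0.325), and leaving out any single marrow library or lung replicate 1 or 2 also ended the call of Atp5g2 (edgeR adjusted p = 0.105 to 0.158). Atp5g1, at 4.94 to 6.29 CPM in marrow and blood, gave 0.00 ± 0.33 in blood against marrow.

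**Figure D4:**
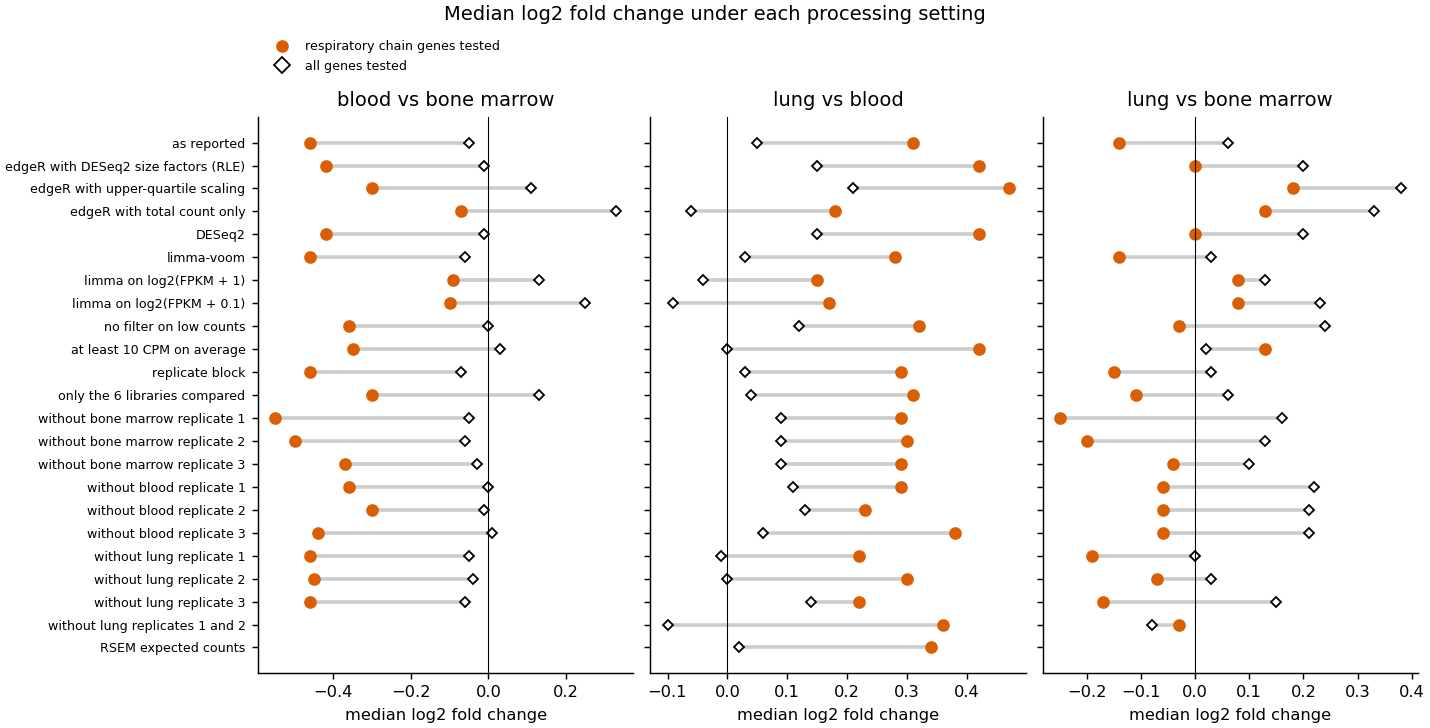
Median log2 fold change (horizontal axes, each with its own range) of the members tested (filled circles) and of all genes tested (open diamonds) in the analysis as reported and in each alternative (rows). In blood against marrow the members lie below all genes in every row, with differences of the medians from -0.50 to -0.23, and in lung against blood they lie above in every row.

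Start sites were searched for the motifs of 3 factors known to control respiratory chain genes: NRF1 (the core of its palindrome), the ETS family to which GABP belongs (CCGGAAG) and YY1 (the core of its motif), on both strands. The window of 300 bases ran from 250 before to 50 after each listed start, in the RefSeq promoter table of GRCm38.p6, which held 77 of the 94 members, 10669 of the genes tested and 27025 genes in all. The NRF1 motif was found in 19 of 77 members (24.7%), 11% of the genes tested and 5.19% of all genes in the table. The ETS motif was found in 22.1% of members, 19.4% of the genes tested and 9.93% of all, and the YY1 motif in 9.09%, 3.61% and 1.59%. The 28 members lower in blood than in marrow included 22 with a listed promoter, of which 7 (31.8%) held the NRF1 motif, 4 (18.2%) the ETS motif and 1 (4.55%) the YY1 motif. A match is a description of letters, not a site that was shown to be bound. The stretches of 30 bases around the NRF1 matches of these 7 genes are printed 5′ to 3′ on the gene's strand, with the match in capitals, to show the letters found and their surroundings (RefSeq, GRCm38.p6). The likeness of the matches follows from the search.
Ndufa8: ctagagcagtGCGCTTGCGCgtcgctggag
Sdhd: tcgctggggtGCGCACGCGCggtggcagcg
Atp5c1: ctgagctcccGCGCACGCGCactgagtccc
Atp5g3: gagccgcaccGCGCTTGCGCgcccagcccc
Atp5h: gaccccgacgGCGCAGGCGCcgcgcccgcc
Atp5k: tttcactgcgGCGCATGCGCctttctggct
Atp5o: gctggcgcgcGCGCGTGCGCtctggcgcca

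The match began 30 bases before a listed start in Ndufa8 (chr2:36049349-36049378, minus strand), 79 in Sdhd (chr9:50603909-50603938, minus strand), 17 in Atp5c1 (chr2:10080430-10080459, minus strand), 50 in Atp5k (chr5:108434430-108434459, minus strand) and 141 in Atp5h (chr11:115420041-115420070, minus strand). In Atp5g3 (chr2:73911295-73911324) and Atp5o (chr16:91931602-91931631), also on the minus strand, it began 13 and 10 bases after the start. Of these genes 5 encode parts of the ATP synthase, as do 6 of the 28 members lower in blood than in marrow. The NRF1 motif was also found in members not called lower in blood, among them Sdha, Ndufb4 and Cox6a1.

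Other mitochondrial genes were read from lists outside the name rule. In blood against marrow 13.1% of all genes tested were lower and 8.34% higher (median -0.05). The shares called lower among assembly factors and among import genes were near that background. The genes named here for this comparison are all lower ones, and the higher ones are given only by count. Of 45 tested assembly factors of the 5 complexes, 1 was higher and 7 lower in blood than in marrow (median -0.17), among them Bcs1l, which inserts the Rieske protein into complex III (-1.79, edgeR adjusted p = 0.00466), and Sco1, a copper chaperone of complex IV (-1.46, edgeR adjusted p = 0.00525). Of 18 genes of the citrate cycle and pyruvate dehydrogenase, 0 were higher and 4 lower (median -0.24), led by Dlst, a part of the 2-oxoglutarate dehydrogenase complex, at -1.54. Import, carrier and cristae genes split into 1 higher and 3 lower of 20 (median -0.06), with the outer membrane channels Vdac1 and Vdac2 at -1.28 and -1.35. Of 17 genes for other electron routes 2 were higher and 1, Sqrdl, was lower (-1.97, median of the list 0.14). The 78 mitochondrial ribosomal proteins gave 5 higher and 7 lower (median -0.02), and the 18 regulators of mitochondrial biogenesis 1 higher and 0 lower (median 0.12), with 2 regulators at an unadjusted p under 0.05. None of 81 cytosolic ribosomal proteins was called (3 at an unadjusted p under 0.05, median 0.08), beside 13.1% of all genes lower and 8.34% higher.

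Between blood and lung, where 13.2% of all genes tested were higher and 15.7% lower in lung (median 0.05), the same lists gave 7 higher and 3 lower assembly factors (median 0.12), with the copper chaperone Cox17 at 1.95 (edgeR adjusted p = 0.00233) and Cox15, a heme A synthesis enzyme, at -1.11. The citrate cycle list had 3 higher and 2 lower (median 0.01), with Dld at 0.97 and Cs, citrate synthase, at -0.45. Import and carrier genes had 3 higher and 0 lower (median 0.21), led by Slc25a3, the mitochondrial phosphate carrier that supplies the ATP synthase, at 1.86 (edgeR adjusted p = 0.000857). Regulators had 1 higher, Gabpb1 (a GABP subunit, 1.90), and 5 lower, among them Yy1 at -0.77 (median -0.24). Other electron routes gave 1 higher and 2 lower (median -0.01), mitochondrial ribosomal proteins 4 and 5 (median 0.23) and cytosolic ribosomal proteins 17 and 0 (median 0.57). Between lung and marrow, where 15.6% of all genes were higher and 22.6% lower, the counts were 5 higher and 9 lower assembly factors, 0 and 6 for the citrate cycle, 4 and 3 for import and carriers, 2 and 4 for regulators, 2 and 3 for other electron routes, 7 and 12 for mitochondrial and 35 and 0 for cytosolic ribosomal proteins.

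The subunits encoded by mitochondrial DNA are absent from the count table and were read from RSEM counts, which here cover blood and lung only. All 13 were tested among 14188 genes, and their median log2 fold change in lung against blood was 1.86, against 0.02 over all genes and 0.34 over the 85 nuclear members tested on the same counts. Only mt-Nd4, a membrane core subunit of complex I, was called (1.88 ± 0.53, edgeR adjusted p = 0.0451), against 10.3% of all genes higher and 12% lower, and 10 had an unadjusted p under 0.05. The nuclear members on these counts gave 6 higher and 0 lower. Summed over the 13 genes, the level was 2558, 5038 and 1136 TPM (transcript abundance scaled by length and library) in blood replicates 1 to 3 and 11647, 12978 and 2263 TPM in lung. Lung replicate 3 lay within the blood range. The nuclear members summed to 6582, 6972 and 7213 TPM in blood and 8899, 7380 and 6176 TPM in lung, so the ratio of mitochondrial to nuclear transcripts was 0.389, 0.723 and 0.157 in blood and 1.31, 1.76 and 0.366 in lung. In both tissues replicate 2 had the highest ratio and replicate 3 the lowest. Without lung replicate 3 there were 8 calls, without blood replicates 1 or 3 or lung replicates 1 or 2 there were 0, and with the replicate number as a block 12. Lung replicates 1 and 2 also held more epithelial, fibroblast and macrophage transcripts than lung replicate 3 (903 and 285 against 76.7 CPM for epithelium). Between lung replicates 1 and 2, epithelial and fibroblast sums (1592 and 1353 CPM) were higher in replicate 1, while the mitochondrial sum was higher in replicate 2. B cell markers, at 341, 324 and 55.2 CPM in blood replicates 1 to 3 and 404, 347 and 37.9 CPM in lung, were lowest in replicate 3 of both tissues. T and NK cell markers stood at 21.1, 56.1 and 12.1 CPM in blood and 55.2, 62.1 and 10.4 CPM in lung, highest in replicate 2 and lowest in replicate 3. The part of these cells was not tested.

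**Figure D5:**
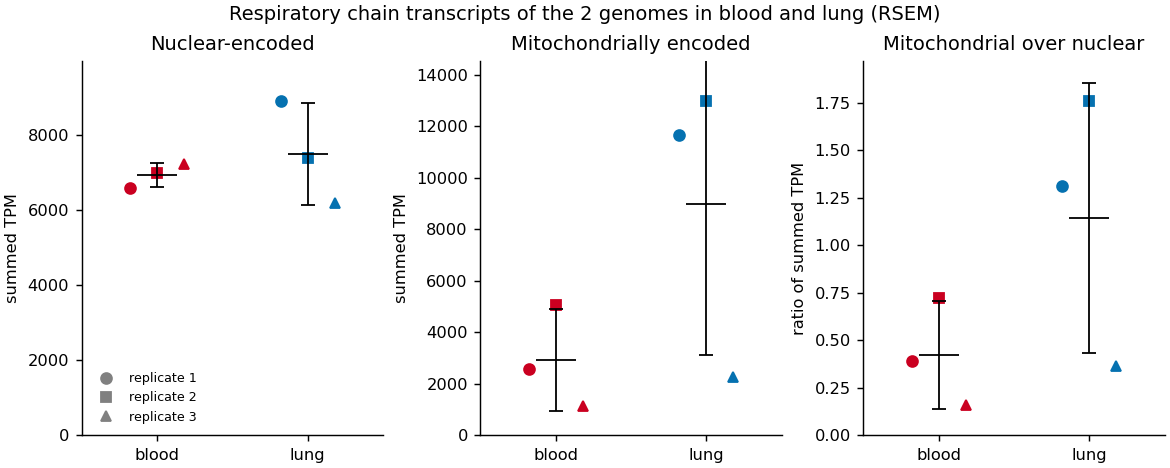
Summed TPM of the nuclear members, summed TPM of the 13 mitochondrially encoded subunits, and their ratio (vertical axes, from 0) in blood and lung libraries (RSEM). Points are libraries, and bars are the mean and SD of n = 3. The nuclear sums stand at 6176 to 8899 TPM, while the mitochondrial sums run from 1136 to 12978 TPM, with replicate 3 lowest in both tissues.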

How the data were processed

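Polyadenylated RNA of neutrophils from 3 tissues, 3 libraries each, was measured by RNA sequencing. The authors deposited a table of read counts and FPKM per transcript for all 9 libraries, with mm10 as the build per the submitters' processing notes, which also list Bowtie2, STAR, StringTie 2.1.3b, RSEM and DESeq2 without saying which made which file. In the file the count column holds whole numbers, and FPKM equals the count over transcript length and a constant per library in 96.62% to 97.22% of transcripts with at least 50 reads (within 1%). For blood and lung the authors also deposited expected counts and TPM per gene from RSEM, per the file headers. The median ratio of table count to expected count was 2.006 to 2.024. The labels name both a standard and a stranded kit, so it is unsure whether antisense reads were kept apart. Column numbers in the table run 1 above the replicate numbers of the sample titles, which are used here. No per-sample column was left unmapped.

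Counts were summed by Entrez gene and fitted with edgeR 4.0.16 (R 4.3.3): TMM scaling, its filter on low counts by tissue, 1 mean per tissue over all 9 libraries, robust quasi-likelihood test, two-sided, Benjamini-Hochberg adjustment over 13510 genes, threshold 0.05. The common biological coefficient of variation was 0.448. The standard error is the log2 fold change over the square root of F. RSEM expected counts were rounded and fitted the same way (14188 genes), for the mitochondrially encoded genes and as an alternative. The fit was also run on counts simulated from its own estimates, with changes planted in genes of at least 10 CPM. That run cannot speak to the choice of scaling or to the mix of cells. Alternatives were other scalings, DESeq2 1.42.0, limma 3.58.1 on counts (voom) and on log2(FPKM + 1) or log2(FPKM + 0.1), no filter, a minimum of 10 CPM, the replicate number as a block, only the libraries compared, and leaving out each library. Lung represented by replicate 3 alone was added after seeing the data.

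The members, gene lists and markers were chosen with earlier results of these data known. Members named with values were the 3 with the largest change among those called in each comparison and complex, the 2 with the highest FPKM per complex, and a set followed throughout (Cycs, Cyc1, the Sdh genes, Uqcrfs1, the main and tissue-bound Cox genes, Ndufa4, Ndufv1, Ndufs1, Ndufs4, the Atp5g genes, Atp5a1 and Atp5b). From other lists the genes with the smallest adjusted p were taken. Other members named were chosen after their values were seen. The values of 1 member are not reported here.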

Additional observations from a re-analysis of the deposited data

How the results depend on the processing

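Calls of respiratory chain members, which stood at 28 lower and 1 higher in blood against marrow, 10 higher and 2 lower in lung against blood, and 1 higher and 15 lower in lung against marrow, were recounted in each alternative. The cause of the changes was not tested. The numbers tested differed too: 63 members at 10 CPM or more, 93 with no filter, 86 or 88 with only the 6 libraries compared and 85 on RSEM counts. In lung against blood at 10 CPM or more, 29 of 63 members were higher, beside 1416 of 6484 genes higher and 1481 lower. With upper-quartile scaling 24 of 88 were higher, beside 2194 of 13510 higher and 1731 lower. On RSEM counts 6 of 85 were higher, beside 1459 of 14188 higher and 1704 lower. In blood against marrow there were 1 higher and 21 lower with DESeq2's size factors in edgeR, 2 and 18 with upper-quartile scaling, 2 and 8 (10 in all) with library totals and with limma on log2(FPKM + 1) or log2(FPKM + 0.1), 1 and 14 (15) with no filter, 2 and 23 at 10 CPM or more, and 2 and 24 with only the 6 libraries compared. DESeq2 gave 1 and 27, and limma-voom 1 and 25. Over all genes tested, DESeq2 gave 1599 higher and 1999 lower and limma-voom 1035 and 1689. Upper-quartile scaling gave 1695 and 1527 genes, and 10 CPM or more 1289 and 1340 of 6484. The FPKM scales gave 2266 and 1100, and 2251 and 1106 genes. In lung against blood there were 13 higher and 0 lower with DESeq2's size factors, 24 and 0 with upper-quartile scaling, 3 and 2 (5) with library totals, 17 and 0 with DESeq2, 6 and 1 (7) with limma-voom, 4 and 2 (6) on either FPKM scale, 9 and 0 with no filter, 29 and 0 at 10 CPM or more, 5 and 0 with only the 6 libraries, 6 and 1 (7) with lung replicate 3 alone, and 6 and 0 on RSEM counts. In lung against marrow there were 4 higher and 10 lower with DESeq2's size factors, 10 and 9 with upper-quartile scaling, 4 and 7 (11) with library totals, 6 and 11 with DESeq2, 0 and 14 with limma-voom, 4 and 8 on log2(FPKM + 1), 5 and 8 on log2(FPKM + 0.1), 3 and 10 with no filter, 11 and 9 at 10 CPM or more, 1 and 13 with only the 6 libraries, and 4 and 5 (9) with lung replicate 3 alone.

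Leaving out 1 library gave 6 to 36 calls in blood against marrow (1 higher in each, 5 to 35 lower), 3 to 22 in lung against blood (3 to 20 higher, 0 to 2 lower) and 10 to 24 in lung against marrow (0 to 6 higher, 10 to 18 lower). The extremes were the fits without blood replicate 2 (6), lung replicate 1 (3), marrow replicate 3 (10) and, for all 3 highest counts, lung replicate 3. Without lung replicate 3, 1589 of 14607 genes were higher and 2376 lower in blood against marrow. The counts over all genes in that fit were 2899 and 2953 in lung against blood and 3339 and 3645 in lung against marrow. The calls of mitochondrially encoded genes in lung against blood, 1 as reported, became 2 with DESeq2's size factors or no filter, 9 with DESeq2, 12 with the replicate block, and 0 to 8 without 1 library.

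Replicate numbers are shared between tissues, but the labels tie no number to an animal or day. Deviations of same-numbered libraries correlated at 0.0489 to 0.518 on the log2 CPM scale with a prior count of 2 and at 0.106 to 0.56 on log2(CPM + 1). The 18 pairs with different numbers correlated at -0.504 to 0.453 and at -0.593 to 0.504 on these scales. In 13 of 18 comparisons the library most alike had the same number, so the pairing is only a hint from the data. With the number as a block there were 1 higher and 40 lower members in blood against marrow, 14 and 3 in lung against blood, and 2 and 20 in lung against marrow. Over all 13510 genes tested the block gave 1632 higher and 2358 lower, 2073 and 2678, and 2454 and 3519. Under the block, Sdhb, Atp5b, Cox5b and Cox4i1, not called as reported, were called lower in blood than in marrow (edgeR adjusted p = 0.00528, 0.0236, 0.0173 and 0.038).

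No named member changed sign as a called value. Among the values of named members under the alternatives, 140 lost and 21 gained a call in blood against marrow, 118 and 49 in lung against blood, and 62 and 59 in lung against marrow. Several tissue-bound isoforms were at 0 or near the floor of 3 reads in marrow and blood.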
